A study of Mus musculus with 12 samples.

Results

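Adipocytes release proteins that act on other tissues, and 10 genes encoding such adipokines and secreted adipocyte proteins were examined in mouse adipocytes with altered levels of the steroid receptor RNA activator (SRA). The genes were Adipoq, Retn, Lep, Rbp4, Nampt, Rarres2, Apln, Hp, Lcn2 and Angptl4. They were chosen by name, together with every probe set annotated to one of them alone, which gave 15 of the 45101 probe sets on the Affymetrix mouse genome 430 2.0 array and 10 of the 18194 genes with a probe set of their own. For each gene the probe set with the highest mean over the 12 arrays was taken as the lead.

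The arrays fall into 4 groups of 3, from 2 cell lines. ST2 cells, a mouse bone marrow stromal line whose strain label is BC8, carried either pMSCV-SRA, a retroviral vector that overexpresses a human SRA isoform, or the pMSCV empty vector. 3T3-L1 cells, a preadipocyte line from Swiss albino mice, carried either the knockdown vector pSuperior-shSRA or its control, called shControl here. The title labels call this second control an empty vector, whereas the design text calls it pSuperior-shcontrol. Each culture was a puromycin-selected pool of infected cells. All groups were differentiated with MDIT, a cocktail of insulin (0.167 µM), dexamethasone (1 µM), the phosphodiesterase inhibitor methylisobutylxanthine (0.5 mM) and the PPARγ ligand troglitazone (5 µM). ST2 adipocytes were harvested at day 4 and 3T3-L1 adipocytes at day 8, and 5 µg of total RNA was used per array. Line, day and vector therefore differ together between the lines and cannot be told apart. The labels call the arrays biological replicates without naming separate cultures or infections, so the p-values measure the spread between these samples.

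Adiponectin (Adipoq), resistin (Retn) and leptin (Lep) are hormones that fat cells make in the mouse. PPARγ and C/EBPα, the transcription factors that drive fat cell formation, also act on several adipokine genes. Dexamethasone and insulin, both present in MDIT, are known to act on several of them as well. Haptoglobin (Hp) and lipocalin-2 (Lcn2) belong to the acute phase proteins, which the liver and other tissues make in response to inflammatory signals. All values below are log2 expression values normalized by robust multiarray analysis (RMA), so a difference of 1 is a doubling. Such values give mRNA levels, not secreted protein.

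The stretches of DNA before 4 of the genes are shown because these genes stood at the extremes of what follows: Adipoq lay nearest the top of the array range and Lep nearest the bottom, and Retn and Lcn2 had the largest differences between the lines. RefSeq sequences of assembly GRCm38.p6 were matched to 7 of the 10 genes. Each is the 250 bases before the annotated start site, on the strand of the gene. Capitals mark matches on either strand to a C/EBP-type motif (TTGCNNAA), a nuclear receptor motif (AGGTCA), a box spelled CCAAT, the letters TATAAA of a TATA box and a glucocorticoid receptor-type motif (ACANNNTGT). No 2 matches overlap in these windows. The Lcn2 window is chr2:32387740-32387989 on the minus strand, the Retn window chr8:3655520-3655769, the Adipoq window chr16:23146286-23146535 and the Lep window chr6:29059971-29060220, all 3 on the plus strand.
Lcn2: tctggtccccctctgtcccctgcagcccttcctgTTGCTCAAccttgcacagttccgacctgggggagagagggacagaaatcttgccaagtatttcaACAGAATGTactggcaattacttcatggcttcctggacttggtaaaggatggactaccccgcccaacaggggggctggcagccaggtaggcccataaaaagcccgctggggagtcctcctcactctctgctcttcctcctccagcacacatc
Retn: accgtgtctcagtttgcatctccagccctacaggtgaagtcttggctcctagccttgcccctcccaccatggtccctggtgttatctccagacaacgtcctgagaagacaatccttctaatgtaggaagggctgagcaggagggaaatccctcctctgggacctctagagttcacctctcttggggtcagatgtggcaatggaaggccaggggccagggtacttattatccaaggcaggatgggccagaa
Adipoq: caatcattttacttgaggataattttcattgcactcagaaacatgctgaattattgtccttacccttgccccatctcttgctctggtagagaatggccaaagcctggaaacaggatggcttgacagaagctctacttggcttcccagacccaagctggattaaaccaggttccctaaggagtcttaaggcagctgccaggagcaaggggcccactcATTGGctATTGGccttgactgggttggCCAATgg
Lep: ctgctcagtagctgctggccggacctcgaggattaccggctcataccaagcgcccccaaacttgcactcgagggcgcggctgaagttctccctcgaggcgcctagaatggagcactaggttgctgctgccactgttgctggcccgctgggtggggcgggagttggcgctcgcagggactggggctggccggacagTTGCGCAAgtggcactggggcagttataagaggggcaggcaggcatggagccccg

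The Lcn2 window holds a C/EBP-type match 216 bases and a glucocorticoid receptor-type match 152 bases before the start site. The Lep window holds 1 C/EBP-type match, 55 bases before the start site, that reads on both strands. In the Adipoq window the matches are 3 CCAAT boxes, at 34, 27 and 7 bases, and the Retn window holds none of the 5 motifs. Of 32851 promoter windows of the same length, 9.56% hold the C/EBP-type motif, 14% the nuclear receptor motif, 33.8% the CCAAT box, 12.4% the TATA box and 5.84% the glucocorticoid receptor-type motif. A match is a description of letters and does not show that a factor binds.

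The targeted gene was read first. Endogenous Sra1 was 11.86, 11.67 and 11.84 on the shControl arrays and 9.46, 9.20 and 9.62 on the shSRA arrays, 5.13-fold lower (limma, adjusted p = 5.58e-07). In ST2 adipocytes Sra1 was 11.14, 10.67 and 11.24 in controls and 11.13, 11.13 and 11.44 with SRA (difference 0.22, SE 0.18, limma adjusted p = 0.484). The overexpressed RNA is human, and whether the mouse probe set reads it was not tested, so this value does not check the overexpression. One array stood apart from the others. ST2 control replicate 2 was set against the average of ST2 control replicates 1 and 3. Its 14314 probe sets with a mean of 8 or more lay a median of 0.43 below that average. The lead probe sets of the 10 members lay a median of 0.29 below it. The highest value on ST2 control replicate 2 was 14.75, against 14.93 to 15.14 on the other 11 arrays. Each call below is therefore also given without it where it matters. Of 5 measured fat cell markers, the highest was Fabp4, a fatty acid binding protein, with group means of 14.78 to 14.98, and the lowest Slc2a4, with 10.04 in ST2 control, 11.12 in ST2 SRA, 12.85 in shControl and 12.87 in shSRA adipocytes. The 5 macrophage markers ran from Ptprc at 4.05 to 4.19 up to Cd68 at 7.18 to 8.63 over the groups, and Cd68 was highest in ST2 SRA adipocytes. The 4 endothelial markers ran from Tek at 4.46 to 4.60 up to Kdr at 6.56 to 6.66, and the 3 liver markers from Alb at 5.27 to 5.41 up to Apoa1 at 6.56 to 6.92.

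In the ST2 adipocytes, Lcn2 was the only 1 of the 7 tested members that passed the test (limma, adjusted p under 0.05) with SRA overexpression, and it fell. That call was lost without ST2 control replicate 1, without ST2 SRA replicate 2 and under limma's nested F classification over both SRA comparisons. Each array reads RNA of a whole pool of cells, so fewer cells that make a transcript and less of it per cell cannot be told apart. No member passed the test in the 3T3-L1 knockdown. The control lines themselves differed far more: Retn, Rarres2, Nampt and Apln were higher in 3T3-L1 adipocytes, and Lcn2 was 41.6-fold lower. Adipoq was close to the highest values of the array in all 4 groups, whereas Lep and Rbp4 were near the lowest. Adipoq, Lep and Rbp4 varied too little over the 12 arrays to be tested, because only probe sets with a variance above 0.05 were tested, 19068 in all.

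**Figure D1:**
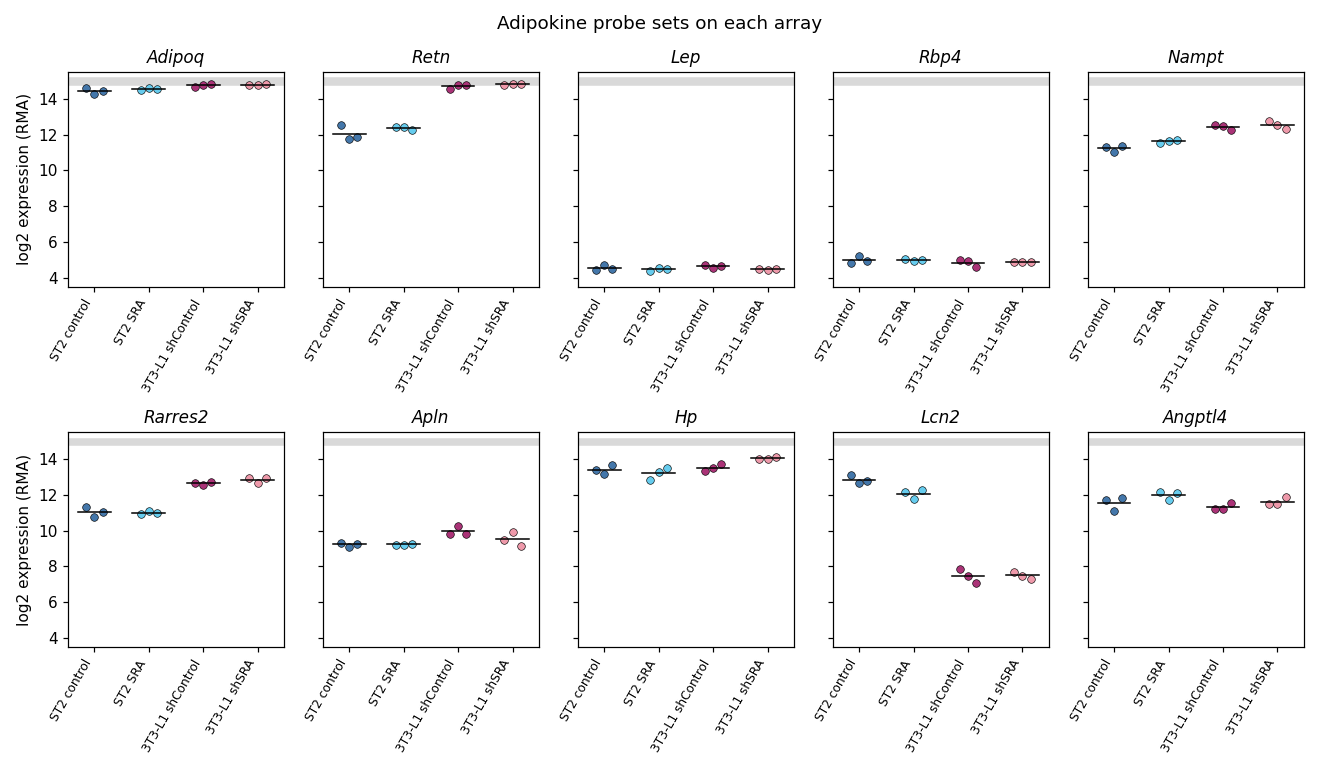
Log2 RMA expression (vertical axis) of the lead probe set of each of the 10 genes on every array, with 3 arrays per group on the horizontal axis and the group mean as a line. The grey band spans the highest value of each array, 14.75 to 15.14. Adipoq lies just under the band in all groups and Retn only in 3T3-L1 adipocytes, and Lcn2 separates the lines.

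Adiponectin, a circulating hormone that raises insulin sensitivity, was read by 1422651_at, near the top of the array range. Adipoq was 14.59, 14.29 and 14.45 in ST2 control adipocytes and 14.48, 14.62 and 14.55 in ST2 SRA adipocytes. In 3T3-L1 adipocytes it was 14.66, 14.76 and 14.82 with shControl and 14.76, 14.79 and 14.81 with shSRA. The groups of each SRA comparison overlapped, and all 6 3T3-L1 arrays read above all 6 ST2 arrays. Adipoq ranked 9 to 19 among the 45101 probe sets on the 3T3-L1 arrays and 15 to 46 on the ST2 arrays, and was 0.29 to 0.56 below the highest value of its array. Fitted without the variance filter, the difference was 0.11 with SRA overexpression (95% interval -0.12 to 0.33, limma adjusted p = 0.696) and 0.04 with knockdown (-0.18 to 0.27, adjusted p = 1). Between the control lines it was 0.30 (0.08 to 0.52, limma without the filter, adjusted p = 0.0435), and 0.19 after a second quantile normalization. In the alternative settings that tested it, the limma adjusted p of this difference ran from 0.0435 to 0.0516.

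Resistin, which opposes insulin action in mice, was read by 1449182_at. Retn was 12.52, 11.76 and 11.85 in ST2 control and 12.44, 12.44 and 12.24 in ST2 SRA adipocytes. It was 14.55, 14.79 and 14.77 with shControl and 14.79, 14.82 and 14.82 with shSRA. In 3T3-L1 adipocytes Retn thus lay near the top of the array range, at ranks 8 to 29 and 0.27 to 0.55 below the highest value, and in ST2 adipocytes at ranks 920 to 1616. The shSRA arrays all read at or above the highest shControl array, and the difference was 0.11 (SE 0.18, limma adjusted p = 1). With SRA overexpression it was 0.33 (SE 0.18, limma adjusted p = 0.295). One control array set that value: without ST2 control replicate 1, the highest of the 3, the difference was 0.57 with an adjusted p of 0.0329.

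Leptin, the hormone that signals fat stores to the brain, and Rbp4, the retinol carrier of blood, gave the lowest values. Lep (1422582_at) ranged from 4.39 to 4.72 over the 6 ST2 arrays and from 4.45 to 4.72 over the 6 3T3-L1 arrays. Its shSRA values of 4.51, 4.45 and 4.47 all lay below the shControl values of 4.72, 4.55 and 4.66, a difference of -0.16 (95% interval -0.39 to 0.07, limma without the filter, adjusted p = 1). Rbp4 (1426225_at) ranged from 4.81 to 5.19 in ST2 and from 4.61 to 4.98 in 3T3-L1 adipocytes, with differences of 0.00 and 0.03 in the SRA comparisons. On these arrays 12.6 to 21 percent of probe sets were dimmer than Lep and 16.9 to 28 percent dimmer than Rbp4. The deposited table gives no detection call, so it was not tested whether either transcript was above background.

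**Figure D2:**
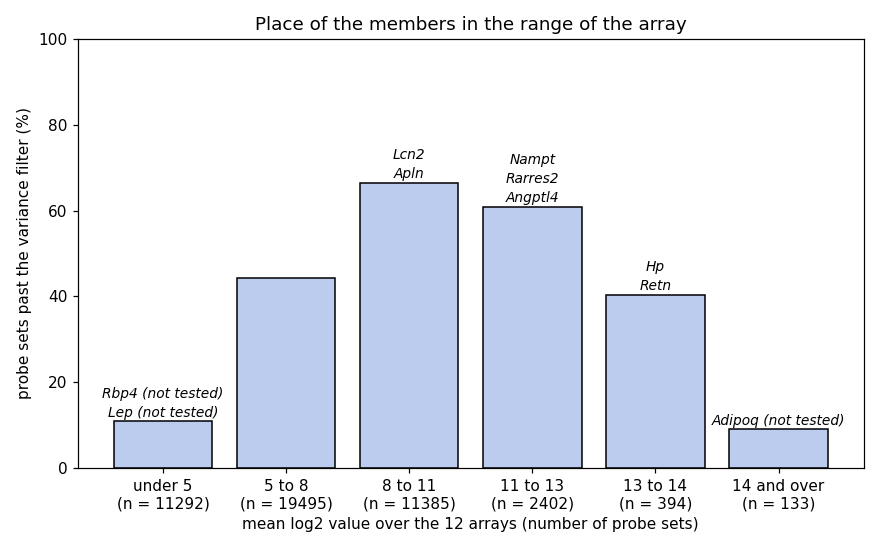
Share of probe sets whose variance over the 12 arrays exceeded 0.05 (vertical axis, percent) by mean log2 level (horizontal axis, with the number of probe sets), with the 10 genes written above the bar of their own level. The share is lowest at both ends, 10.9% under 5 and 9.02% at 14 and over, where the 3 genes that were not tested lie.

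The position of Adipoq was set beside all probe sets of like mean level over the 12 arrays. Retn, near the top only in 3T3-L1 adipocytes, had a mean of 13.48 over all arrays and is not in this set. Of the 133 probe sets with a mean of 14 or more, 12 passed the variance filter (9.02%), against 66.5% of those between 8 and 11. None of these 12 was called with SRA overexpression or knockdown (limma, adjusted p under 0.05), against 7.98% and 0.0734% of all tested probe sets. Between the lines 8 of the 12 were called, against 63.6%. With so few probe sets these counts do not set the brightest ones apart. Whether the brightest probe sets still follow the amount of mRNA was not tested, and a small difference for Adipoq is a small difference of the array signal.

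Nampt, the rate-limiting enzyme of NAD salvage, which is also found outside cells as visfatin, had 3 probe sets. On the lead (1417190_at) Nampt was 11.32, 11.04 and 11.37 in ST2 control and 11.53, 11.64 and 11.72 in ST2 SRA adipocytes. With shControl it was 12.53, 12.46 and 12.23, and with shSRA 12.76, 12.56 and 12.33. The ST2 groups did not overlap, but the difference of 0.39 (SE 0.16) did not pass the test (limma adjusted p = 0.166), nor did those of 0.41 and 0.45 on the other probe sets. In the knockdown the difference was 0.14 (limma adjusted p = 1). Between the control lines Nampt was 2.24-fold higher in 3T3-L1 adipocytes (limma adjusted p = 6.56e-06), with log2 differences of 1.06 and 1.13 on the other probe sets.

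Rarres2 encodes chemerin, a chemoattractant that also acts on fat cells. On its lead (1428538_s_at) Rarres2 was 11.31, 10.75 and 11.06 in ST2 control and 10.95, 11.08 and 10.998 in ST2 SRA adipocytes. It was 12.66, 12.54 and 12.71 with shControl and 12.91, 12.63 and 12.92 with shSRA. The groups overlapped in both SRA comparisons, with differences of -0.03 (95% interval -0.37 to 0.32) and 0.19 (-0.16 to 0.53). Rarres2 was 3.03-fold higher in the 3T3-L1 than in the ST2 controls (limma adjusted p = 1.05e-07). Its other bright probe set gave a log2 difference of 1.48, and a dim one with group means of 6.30 to 7.25 gave 0.62 (limma adjusted p = 0.00245).

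Apelin (Apln), a peptide that acts on heart and vessels, was read by 1451038_at. Apln was 9.31, 9.10 and 9.27 in ST2 control and 9.22, 9.21 and 9.25 in ST2 SRA adipocytes. With shControl it was 9.81, 10.26 and 9.78, and with shSRA 9.47, 9.92 and 9.15. In 3T3-L1 each shSRA array read below the shControl array of the same number, by 0.34, 0.34 and 0.64, although the groups overlapped. The difference of -0.44 (SE 0.19) did not pass the test (limma adjusted p = 1, and 0.972 with same-numbered 3T3-L1 arrays as blocks). In ST2 it was 0.00 (95% interval -0.40 to 0.39), and between the control lines Apln was 1.65-fold higher in 3T3-L1 (limma adjusted p = 0.00287).

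Haptoglobin, which binds free haemoglobin, had the largest knockdown difference of the members. Hp (1448881_at) was 13.34, 13.48 and 13.73 with shControl and 13.999, 13.98 and 14.13 with shSRA. In ST2 it was 13.41, 13.16 and 13.65 in controls and 12.85, 13.26 and 13.48 with SRA. The 3T3-L1 groups did not overlap and the pairs of equal number differed by 0.66, 0.50 and 0.40. The difference of 0.52 (SE 0.18, 1.43-fold) nevertheless did not pass the test over all probe sets (limma unadjusted p = 0.0103, adjusted p = 1, and adjusted p = 0.962 with the block in 3T3-L1). In ST2 adipocytes the difference was -0.21 (95% interval -0.59 to 0.17, limma adjusted p = 0.525). Overexpression minus knockdown effect was -0.73 for Hp (SE 0.26, limma adjusted p = 0.218). The study names Hp among genes that moved in opposite directions with SRA overexpression and knockdown, whereas Hp passed in neither comparison here. Hp ranked 118 to 428 on the 3T3-L1 arrays, 1.00 to 1.76 below the highest value. On the ST2 arrays it ranked 271 to 614, 1.37 to 2.08 below. Whether the signal still follows the amount of mRNA at this level was not tested. The control lines differed by 0.11 (95% interval -0.27 to 0.49).

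Lipocalin-2 carries iron-binding siderophores and limits bacterial growth, and fat cells release it under inflammatory signals. Lcn2 (1427747_a_at) was 13.11, 12.65 and 12.77 in ST2 control and 12.16, 11.76 and 12.26 in ST2 SRA adipocytes. In 3T3-L1 adipocytes it was 7.88, 7.44 and 7.09 with shControl and 7.69, 7.47 and 7.32 with shSRA. All SRA arrays of ST2 read below all control arrays, and Lcn2 fell 1.73-fold (log2 difference -0.79, SE 0.20, limma adjusted p = 0.0179). Without ST2 control replicate 1 the difference was -0.65 (adjusted p = 0.0625) and without ST2 SRA replicate 2 it was -0.64 (adjusted p = 0.138), so the call rested on both arrays. Nor was Lcn2 called under limma's nested F classification over both SRA comparisons. In the knockdown the groups overlapped, with a difference of 0.02 (95% interval -0.40 to 0.45). The overexpression and knockdown effects were not shown to differ (-0.81, SE 0.29, limma adjusted p = 0.211).

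Angptl4, which inhibits lipoprotein lipase and is a target of PPARγ, read 11.73, 11.09 and 11.83 in ST2 control and 12.18, 11.73 and 12.10 in ST2 SRA adipocytes on its lead (1417130_s_at). It was 11.20, 11.19 and 11.54 with shControl and 11.48, 11.48 and 11.85 with shSRA. The difference was 0.45 with overexpression (SE 0.20, limma adjusted p = 0.187) and 0.30 with knockdown (SE 0.20, limma adjusted p = 1). The pairs of equal number in 3T3-L1 differed by 0.28, 0.29 and 0.32, while the groups overlapped. Both differences were positive, as they were on the second, dim probe set (0.44 and 0.28, SE 0.36). Between the control lines Angptl4 differed by -0.24 (limma adjusted p = 0.285), and by -0.47 (adjusted p = 0.0252) without ST2 control replicate 2.

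**Figure D3:**
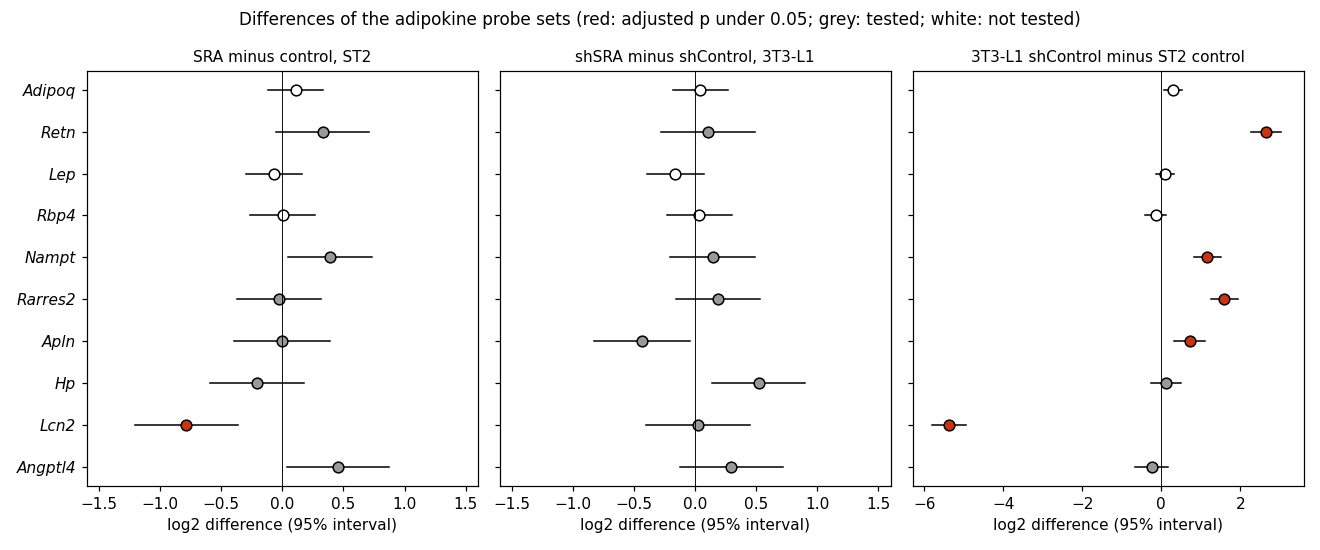
Log2 difference (horizontal axis) with its 95% interval for the lead probe set of each of the 10 genes in SRA overexpression, SRA knockdown and the control lines, with 3 arrays per group. Red points passed the limma test at an adjusted p under 0.05, grey points were tested and did not, and white points were not tested. Lcn2 alone is red in the first panel and no gene is in the second, and the third panel has a wider axis.

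Across the members, 1 of the 7 tested passed the test with SRA overexpression, against 7.98% of all tested probe sets (2.33% higher and 5.65% lower with SRA). The share is not a result about adipokines, since 1 call is near what the background gives for 7 genes. The groups did not overlap for 2 of the 7, Lcn2 and Nampt, against 24.2% of all tested probe sets. At an unadjusted limma p under 0.05 there were 3 members, Lcn2, Nampt and Angptl4, against 22.2% of probe sets. In the knockdown 0 of 7 passed, against a background of 0.0734%, or 0.105% with the block in 3T3-L1, where again 0 passed. Groups of the knockdown did not overlap for 2 of the 7, Hp and Retn, against 10.2%, and 2, Hp and Apln, had an unadjusted limma p under 0.05, against 2.8% of probe sets. For the difference between both effects 0 of 7 passed, against 2.32%, with 2, Hp and Lcn2, at an unadjusted limma p under 0.05, against 11.4%. The median difference over all 10 members was 0.00 with overexpression and 0.07 with knockdown, beside 0.06 and -0.01 over all 18194 genes.

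Between the control lines, 5 of the 7 passed, against 63.6% of all tested probe sets. Retn, Rarres2, Nampt and Apln were higher in 3T3-L1 adipocytes, a direction found for 37.4% of probe sets, and Lcn2 was lower, as were 26.2%. Groups did not overlap for 5 of the 7, against 62.9%. With so many probe sets called, these shares set no member apart, and the sizes describe them better. The array signal of Retn differed 6.33-fold (log2 difference 2.66, SE 0.18, limma adjusted p = 2.31e-10). Its 3T3-L1 values lie near the top of the range, and whether the mRNA differed by more was not tested. Lcn2 differed 41.6-fold in the other direction (log2 difference -5.38, SE 0.20, limma adjusted p = 1.93e-14).

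**Figure D4:**
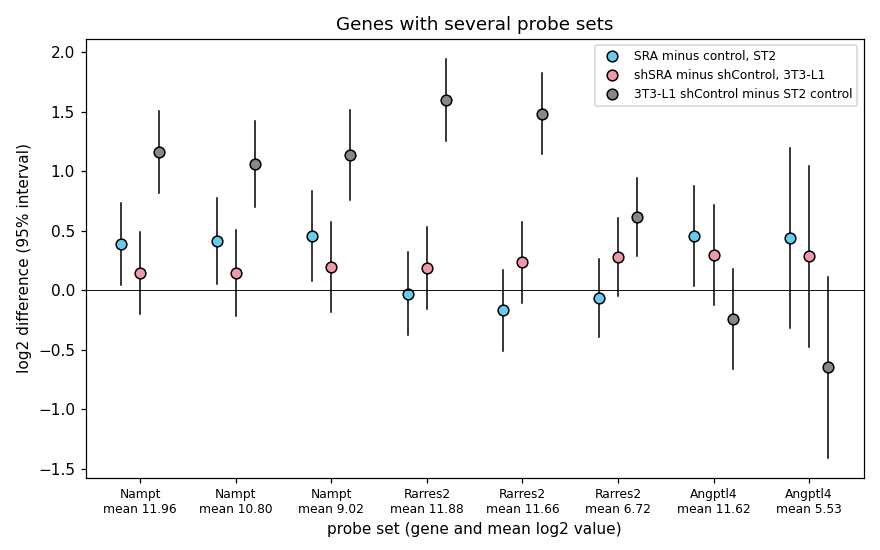
Log2 difference with its 95% interval (vertical axis) for every probe set of Nampt, Rarres2 and Angptl4 (horizontal axis, with the mean level), in the overexpression, the knockdown and the control lines. The 3 Nampt probe sets lie between 1.06 and 1.16 in the line comparison, and the dim Rarres2 probe set at 0.62 lies below its bright ones.

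The genes whose levels over the 12 arrays were most like those of Lcn2 were Mbnl3, an RNA-binding protein (Pearson r = 0.998), Glipr1 (r = 0.996) and Il1rn, the interleukin-1 receptor antagonist (r = 0.996), among 8189 genes. These values are a description, and most of the likeness is the gap between the lines. Within the 6 ST2 arrays r was 0.971, 0.975 and 0.954, and within the 6 3T3-L1 arrays 0.877, 0.187 and 0.16. They were picked for following Lcn2 on these arrays, so their differences in ST2 adipocytes, -0.75, -0.95 and -1.28, follow from the choice and add no support.

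**Figure D5:**
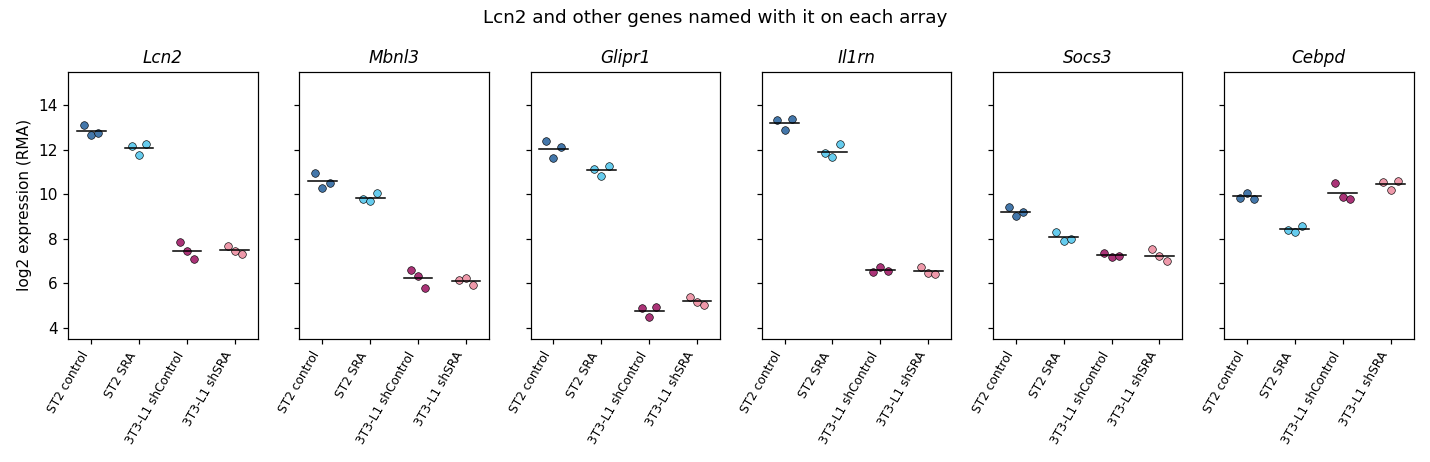
Log2 RMA expression (vertical axis) on every array, by group, with the group mean as a line, for Lcn2, the 3 genes most like it and Socs3 and Cebpd of the acute phase list. In each gene the 3 ST2 SRA arrays lie below the 3 ST2 control arrays, and Cebpd does not share the gap between the lines. The genes beside Lcn2 were chosen for following it or from the list genes that fell, so the shared fall follows from the choice. List genes that did not pass, such as Orm1 and Orm2, are not shown.

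Lcn2 and Hp were next set beside a list of 24 other measured acute phase proteins and their inducers, of which 18 passed the variance filter and were tested. With SRA overexpression 0 of the 18 rose and 5 fell, against 2.33% and 5.65% of all tested probe sets: Cebpd, a transcription factor that drives acute phase genes (-1.48), Il1rn (-1.28), Socs3, a feedback inhibitor of cytokine signalling (-1.15), Steap4, a metalloreductase (-0.93), and the copper carrier Cp (-0.81). Their limma adjusted p-values ran from 3.33e-05 for Cebpd to 0.0108 for Cp. Il1rn was also picked above for following Lcn2, and the study had already reported lower Il1rn and Socs3 in these data. The list was chosen with earlier results known, so this count is a description. The median difference of the list was -0.06, beside 0.06 over all genes. The acute phase proteins Orm1, Orm2 and Saa3 did not pass, with differences of 0.08, 0.15 and -0.25. In the knockdown 0 of 18 passed. Between the control lines, where 37.4% of probe sets were higher and 26.2% lower, 6 were higher in 3T3-L1, led by Itih4 (5.46), Cp (1.46) and Hpx (1.31), and 6 lower, led by Il1rn (-6.60), Socs3 (-1.96) and Orm2 (-1.29).

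A further list held 39 other measured proteins, most of them secreted by adipocytes, and 29 were tested. Of these 0 rose and 6 fell with SRA overexpression, against 2.33% and 5.65% of probe sets. The study had already reported lower Ccl2 in these data, and this list too was chosen with earlier results known. The falls were largest for Ccl2, the monocyte chemoattractant MCP-1 (-2.57), Fstl1, a follistatin-like glycoprotein (-1.82), Npr3, a membrane receptor that clears natriuretic peptides and is not itself secreted (-1.78), and Sfrp2, which binds Wnt proteins (-1.29). Ccl2 was 11.09 in ST2 control, 8.52 in ST2 SRA, 5.998 in shControl and 6.34 in shSRA adipocytes (means, n = 3, SD 0.47, 0.60, 0.07 and 0.32). Like Lcn2, it was thus far lower in 3T3-L1 adipocytes (log2 difference -5.09, limma adjusted p = 1.79e-12). In all 14 of the 29 were lower and 7 higher in 3T3-L1, against 26.2% and 37.4%, the latter led by the growth factor Igf1 (4.03) and Apod (3.39). No gene of the list passed in the knockdown. Of 4 tested C1q and TNF related proteins (8 measured), which resemble adiponectin, 0 passed in either SRA comparison, while C1qtnf12 was higher (1.01) and C1qtnf1 lower (-2.32) in 3T3-L1. Of 2 measured resistin-like proteins neither passed the variance filter.

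A list built around adipokine receptors held 18 measured genes, not all of them receptors of the members, and 7 were tested. Of the 7, 1 was higher and 3 lower with SRA overexpression, against 2.33% and 5.65% of probe sets. The gene that rose was the insulin receptor Insr (0.67), whose ligand is not a member. Cdh13, the T-cadherin that binds adiponectin (-0.92), Itgav (-0.85) and Sdc4 (-0.74) fell. The limma adjusted p-values of these genes ran from 0.00117 to 0.0145. The adiponectin receptors Adipor1 and Adipor2 were bright, with group means of 11.75 to 11.91 and of 12.42 to 12.67, and neither varied enough to be tested. The leptin receptor Lepr (5.61 to 5.81), the apelin receptor Aplnr (5.53 to 5.62), the chemerin receptor Cmklr1 (5.19 to 5.35) and the Rbp4 receptor Stra6 (6.06 to 6.22) were dim in all groups. In the knockdown 0 of 7 passed. Insr and Sdc4 were higher in 3T3-L1, and Cdh13, Itgav, Cap1 and Gpr1 were lower, against 37.4% and 26.2% of probe sets.

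Adiponectin is folded and assembled in the endoplasmic reticulum before release, and 2 of 13 tested genes of this route (16 measured) rose with SRA overexpression, against 2.33%. These were the disulfide isomerases Pdia4 (0.65, limma adjusted p = 0.0199) and Pdia6 (0.59, adjusted p = 0.0382, or 0.0595 without ST2 control replicate 2). Between the lines 4 of the 13 were higher in 3T3-L1 and 6 lower, against 37.4% and 26.2% of all tested probe sets. The largest difference was that of Gstk1, the disulfide-bond A oxidoreductase-like protein, at a mean of 5.19 in ST2 control and 11.2 in shControl adipocytes (limma adjusted p = 1.55e-15). The oxidase Ero1a was 0.87 higher, and Pdia6 (-1.13), Pdia3 (-0.90) and Pdia4 (-0.84) were lower. Of 5 tested angiopoietin-like proteins and partners of lipoprotein lipase (9 measured), Angptl6 (1.08) and the lipase maturation factor Lmf1 (0.63) rose with overexpression, against 2.33%. Angptl6 (1.51) and Angptl8 (0.83) were higher in 3T3-L1, and Lmf2 (-0.36) was lower.

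Among 8 tested NAD genes around Nampt (12 measured), Nmnat2 fell with overexpression (-1.05, limma adjusted p = 0.000696), and Sirt3 was higher and Nmnat2 and Nadsyn1 lower in 3T3-L1. Among 6 tested genes of retinol handling around Rbp4 (14 measured), Retsat rose (0.82, limma adjusted p = 0.0181, or 0.0706 without ST2 control replicate 2) and Rdh10 fell (-0.81). Between the lines Aldh1a1 and Cyp26b1 were higher and Rdh10 and Dhrs3 lower in 3T3-L1. Of 16 tested regulators of adipokine genes (21 measured), Srebf1 rose (0.70) and Cebpd and Esr1 (-0.96) fell with overexpression. Pparg was 0.41 higher in ST2 SRA than control adipocytes and did not pass the test. In 3T3-L1 adipocytes 10 of the 16 regulators were higher, led by Klf15 (4.58), Ppargc1a (3.68), Ebf2 (3.29) and Foxo1 (1.23), and Esr1 (-2.44) and Ppara (-0.44) were lower. Beside these 3 lists, 2.33% of all tested probe sets rose and 5.65% fell with overexpression. Between the lines 37.4% were higher and 26.2% lower in 3T3-L1. None of these 3 lists had a gene past the test in the knockdown, against 0.0734% of probe sets.

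Cell markers moved beside these results, and their part in them was not tested. Of 20 tested adipocyte markers that are not secreted (23 measured), 6 rose with SRA overexpression and 0 fell, against 2.33% and 5.65% of probe sets, led by the glucose transporter Slc2a4 (1.08), Dgat2 (0.88), Cd36 (0.86) and Aqp7 (0.85). Of 14 tested preadipocyte and fibroblast markers (17 measured) 0 rose and 7 fell, led by Col3a1 (-1.95), Col1a1 (-1.47), S100a4 (-1.45) and Pdgfra (-1.25). Between the lines 13 adipocyte markers were higher in 3T3-L1, against 37.4% of probe sets, led by Pck1 (4.41), Ffar4 (4.17), Cidea (4.12) and Thrsp (3.81), and Aqp7 was lower. Fibroblast markers went both ways there, with 6 higher, led by Dlk1 (6.46), Dcn (6.29), Lum (5.26) and Thy1 (4.35), and 5 lower, led by S100a4 (-2.67). Of all tested probe sets 26.2% were lower. In the knockdown the fibroblast proteoglycan Lum alone among all lists passed, and fell (-1.57, limma adjusted p = 0.0173, or 0.0761 without ST2 control replicate 2). Of 14 measured macrophage and blood cell markers 4 were tested, and 0 passed in either SRA comparison, although 1 fell with overexpression without ST2 control replicate 2. Cd14, Cd68 and S100a8 were lower in 3T3-L1. None of 8 endothelial markers and 1 of 5 osteoblast markers passed the variance filter, so these lists could hardly give a call. Of 2 tested hepatocyte markers (8 measured) Cyp2e1 fell with overexpression (-1.47).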

How the data were processed

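The deposited table holds log2 expression values that the authors obtained by robust multiarray analysis (RMA) of 12 Affymetrix 430 2.0 arrays. RMA corrects background, quantile normalizes and summarizes probes, so values lie between about the same limits on each array and bright or dim differences are compressed. The number of arrays, 3 per group, limits the precision. Of 45101 probe sets, 34958 carried 1 gene symbol, 932 several and 9211 none, in an annotation that can be old. As in the study, 19068 probe sets were kept for a variance above 0.05 and fitted in 1 linear model of the 4 groups with limma 3.58.1 in R 4.3.3, without a block. P-values were adjusted by Benjamini-Hochberg in each comparison, with a threshold of 0.05. The calls are not those of the study. It reported more altered genes in overexpression and in knockdown than the 1522 and 14 probe sets called here. The code was tested on simulated data. Same-numbered arrays deviated together in 3T3-L1 (correlations 0.59, 0.59 and 0.38) but not in all ST2 pairs (0.04, 0.27 and 0.53), so the block was used in 3T3-L1 as an alternative chosen after seeing the data. Named were the 10 members, up to 4 called genes per list with the largest differences, the 3 genes most like a called member, and Sra1; other genes, among them receptors, Orm1, Orm2, Saa3, Pparg and further list genes, were named with their values known. Of 262 entries in 16 gene lists 238 were measured, some in more than 1 list. Members and lists were chosen with earlier results of these data known.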

Additional observations from a re-analysis of the deposited data

How the results depend on the processing

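With SRA overexpression the count of members past the test was 1 (Lcn2). It was 0 under limma's nested F classification over both SRA comparisons and 2 with a replicate block in both lines (Lcn2 and Angptl4). With array weights it was 4 (Retn, Nampt, Hp and Lcn2), and 0 to 1 when single arrays were left out. The call was not always Lcn2. Without ST2 control replicate 1 it was Retn, which was higher with SRA (0.57, limma adjusted p = 0.0329), while Lcn2 did not pass (adjusted p = 0.0625). For the difference between both effects the count was 0, but 2 (Hp and Lcn2) with the replicate block in both lines and 2 with array weights. The weights ran from 0.0759 for ST2 control replicate 2 to 18.3 for ST2 control replicate 3, and their estimation did not converge. With a replicate block in 3T3-L1 alone the member counts were those of the fit without a block. The knockdown count was 0 in every setting tried, and that between the lines 5 to 6. Over all probe sets the nested classification gave 206 higher and 802 lower in place of 445 and 1077 with overexpression, and 46 and 44 in place of 6 and 8 with knockdown. The cause of these changes was not tested.

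No value that had passed the test changed sign. Lcn2 in the knockdown was -0.0018 with arrays centred on bright probe sets. Hp between the lines was -0.021 after a second quantile normalization and -0.11 with array weights. The effect difference of Angptl4 was -0.10 with array weights. Leaving out single arrays gave -0.17 to 0.11 for Rarres2 and -0.065 to 0.039 for Apln with overexpression, -0.17 to 0.23 for Lcn2 with knockdown, -0.012 to 0.23 for Hp between the lines and -0.074 to 0.30 for the effect difference of Angptl4. Among the members that were not tested, the same gave -0.13 to 0.023 for Lep and -0.087 to 0.11 for Rbp4 with overexpression, -0.0011 to 0.081 for Adipoq and -0.086 to 0.10 for Rbp4 with knockdown, and -0.011 to 0.14 for Adipoq and -0.12 to 0.088 for Rbp4 in the effect difference. Rbp4 with overexpression was also -0.021 after a second quantile normalization and -0.073 with centring on bright probe sets, and its effect difference 0.017 with array weights. No paired analysis was possible between the lines because nothing ties arrays of equal number across the lines. Without probe-level or detection data, levels near either end of the array could not be checked.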
